A study of Mus musculus with 20 samples.

Results

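Eosinophils and macrophages sorted from the colon of naive mice were compared with each other by RNA sequencing. Of the 20 libraries in the series, 7 came from naive colon and were used here: 2 of eosinophils and 5 of macrophages, chosen by their sample labels and by no measured value. The mice were of the C57BL/6 strain, and the labels call these colons naive, with the disease state control. Colons were digested with enzymes, each cell type was isolated by flow cytometry, and RNA was taken up in Trizol. Libraries were made by CEL-Seq, which counts the 3′ ends of transcripts, with 3 technical replicates per sample made from different primer pools. The other 13 libraries hold the same cell types, 7 of eosinophils and 6 of macrophages, from colons of mice carrying tumors after an induction labelled CAC. They were used only to set the same contrast beside the naive values. The labels give neither the antibodies nor the gates of the sort, nor the age or number of the mice, and nothing in them says that libraries came from separate animals. The p-values below therefore measure the spread between these libraries, which may be technical in part. The fit took a common spread per gene for both cell types, to which the 5 macrophage libraries contributed more than the 2 eosinophil libraries. The eosinophil pair was the less even group, as given below, so the p-values can understate the spread among eosinophils. In bulk RNA, fewer cells of a type and less RNA per cell cannot be told apart.

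Eosinophils are short-lived granulocytes that leave the bone marrow and settle in the gut, where interleukin-5 keeps them alive and the receptor CCR3 draws them toward eotaxins. They carry preformed cationic granule proteins and make lipid mediators from arachidonic acid. Intestinal macrophages are replenished from blood monocytes, depend on signals through the CSF1 receptor, clear bacteria and dying cells, present antigen on MHC class II and hold inflammation down through interleukin-10. Both cell types live side by side in the lamina propria, the tissue under the gut epithelium.

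Levels are given as CPM, reads scaled to a common total after a joint normalisation of all naive libraries, and values of each gene are listed in the order of the replicate numbers. Differences are eosinophils minus macrophages on the log2(CPM + 1) scale, with the standard error (SE) and the adjusted p of limma, a linear model fitted across all genes. A gene is called when that p is under 0.05. Eosinophil libraries 1 and 2 held 7469714 and 4452513 reads, and the macrophage libraries held 1477255 to 7945096 reads.

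The labelled cell types were checked first against their defining genes. Siglecf, the eosinophil lectin used as a sort marker in many studies, stood at 229.8 and 552 CPM in the eosinophil libraries and at 1.92, 4, 4.24, 4.17 and 1.31 CPM in the macrophage libraries. Alox15, a lipoxygenase of eosinophils, stood at 691 and 1142 CPM against 0.385, 3.26, 2.54, 6.26 and 2.62 CPM. C1qb, a chain of complement C1q made by tissue macrophages, went the other way, with 76.9 and 42.1 CPM against 6028, 3365, 6042, 3339 and 4046 CPM. For these 3 genes the lowest library of the high group was far above the highest library of the low group. Csf1r, the CSF1 receptor, was the least clear-cut of the markers: it stood at 276 and 265 CPM in eosinophils and at 981, 1309, 1035, 1375 and 924 CPM in macrophages. The groups did not overlap for Csf1r, but the eosinophil level was 24.5% and 23.6% of the macrophage mean, whereas that of C1qb was 1.68% and 0.922% of it.

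Of 12994 genes tested, 4508 (34.7%) were called. Of these, 1945 (15% of the genes tested) were higher in eosinophils and 2563 (19.7%) were higher in macrophages. A difference of at least 3 log2 units was reached by 203 genes higher in eosinophils and by 370 genes higher in macrophages, and one of at least 5 log2 units by 36 and 80 genes. The median difference over all genes tested was -0.11, and this is the value against which the medians of gene groups are read below. Counts of called members of a group are likewise to be read against the shares of 15% and 19.7%. In 5900 genes (45.4%) both eosinophil libraries lay above, or both lay below, all 5 macrophage libraries. They lay above in 2546 genes (19.6%) and below in 3354 genes (25.8%). Groups said below not to overlap are to be read against these shares. Scaling each library by its own sum alone changed the calls to 1260 genes higher in eosinophils and 3523 higher in macrophages, and the median to -0.44.

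**Figure D1:**
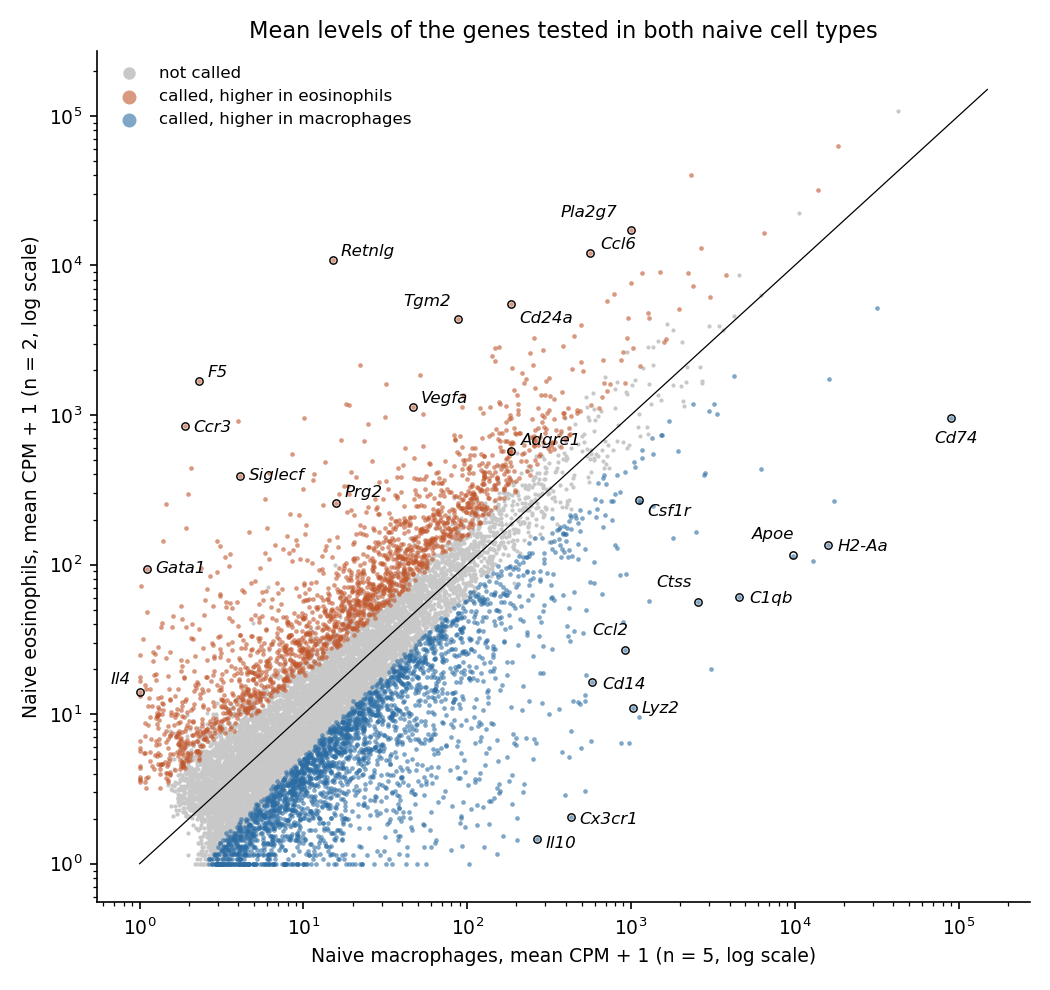
Mean level of each of the 12994 genes tested in naive macrophages (horizontal axis, n = 5) and naive eosinophils (vertical axis, n = 2), as CPM + 1 on log axes, with called genes coloured by direction, the line of equal levels and some named genes labelled. F5, Ccr3 and Gata1 lie near the vertical axis and Il10 and Cx3cr1 near the horizontal axis, so these genes were near 0 in the other cell type.

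The receptors that define eosinophils were higher in the eosinophil libraries. Of the 24 genes listed as eosinophil surface and cytokine receptors, 19 passed the filter on low values. Of those 19, 14 were higher in eosinophils and 2 in macrophages, with a median difference of 1.66. Ccr3, the eotaxin receptor, reached 688 and 991 CPM in eosinophils and stayed at 0.385, 0.316, 2.26, 1.51 and 0 CPM in macrophages, a difference of 8.91 ± 0.46 (adjusted p = 1.51e-07). Il5ra, the specific chain of the interleukin-5 receptor, reached 89.5 and 145 CPM against 2.69, 1.79, 2.83, 4.17 and 1.31 CPM (5.07 ± 0.38, adjusted p = 2.16e-06). Neither gene overlapped between the groups, and in both cases eosinophil library 2 was the higher of the pair.

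The promoters of Ccr3, Siglecf and Il5ra are shown because these genes mark the cell type and because eosinophil development depends on GATA factors, which recognise short GATA-containing words. Each line holds 250 bases before and 50 bases after the RefSeq start site (GRCm38.p6), 5′ to 3′ on the gene's strand, at chr9:124021721-124022020 on the plus strand, chr7:43351091-43351390 on the plus strand and chr6:106748988-106749287 on the minus strand. Capitals mark AGATAA and AGATAG, as well as the same words beginning with T.
Ccr3: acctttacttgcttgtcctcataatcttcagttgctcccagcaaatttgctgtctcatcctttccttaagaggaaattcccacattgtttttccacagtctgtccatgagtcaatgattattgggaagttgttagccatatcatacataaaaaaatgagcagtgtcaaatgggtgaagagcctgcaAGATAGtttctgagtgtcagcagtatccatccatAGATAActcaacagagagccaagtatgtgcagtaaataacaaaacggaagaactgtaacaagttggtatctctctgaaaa
Siglecf: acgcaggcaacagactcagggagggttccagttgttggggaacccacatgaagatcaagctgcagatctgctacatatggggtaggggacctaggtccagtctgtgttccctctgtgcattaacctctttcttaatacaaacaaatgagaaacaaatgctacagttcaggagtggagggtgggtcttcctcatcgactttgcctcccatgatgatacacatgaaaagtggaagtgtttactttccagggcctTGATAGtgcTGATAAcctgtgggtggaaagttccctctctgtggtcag
Il5ra: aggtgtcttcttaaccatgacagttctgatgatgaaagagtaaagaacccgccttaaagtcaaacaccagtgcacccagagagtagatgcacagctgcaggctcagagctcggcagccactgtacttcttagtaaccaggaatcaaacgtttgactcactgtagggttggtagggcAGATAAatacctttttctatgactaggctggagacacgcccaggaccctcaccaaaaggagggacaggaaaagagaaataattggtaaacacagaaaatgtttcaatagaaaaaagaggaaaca
Ccr3 held 2 of these words, starting 64 and 30 bases before the start site. Siglecf held 2 within the first bases after it, at positions 3 and 12, and Il5ra held 1, starting 74 bases before it. On either strand, 12 of the 24 promoters found for the receptor list held such a word, or 8 of the 19 genes with a promoter. The share was 29.8% of all 32851 promoters in the table and 19.5% of the promoters of genes tested. It was 29.1% for genes at least 3 log2 units higher in eosinophils and 22.7% for those at least 3 log2 units higher in macrophages. In the list of MHC class II genes, 5 of 13 promoters (38.5%) held such a word. A match describes letters and is not a binding site, and the receptor list's promoters include several start sites of the same gene. Of the 472 genes that the rule for named genes allows, 355 had a promoter in the table.

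Other cytokine and danger receptors followed the same direction. Il1rl1, the receptor for interleukin-33, stood at 502 and 844 CPM in eosinophils and 15.6 to 30.8 CPM in macrophages (4.85 ± 0.33, adjusted p = 9.66e-07). P2ry14, a receptor for UDP-glucose, stood at 478 and 731 CPM against 36.7 to 47.3 CPM (3.84 ± 0.25, adjusted p = 6.82e-07). Cd300lf, an inhibitory receptor of myeloid cells, stood at 209 and 221 CPM against 6.16 to 8.11 CPM (4.72 ± 0.25, adjusted p = 1.9e-07). Csf2rb, the signalling chain shared by the receptors for interleukin-5, interleukin-3 and GM-CSF, differed less, at 791 and 467 CPM against 169 to 282 CPM (1.48 ± 0.30, adjusted p = 0.00295). The exceptions in the list were Ptger4, a prostaglandin E2 receptor, at 9.17 and 5.19 CPM against 74.6, 79.7, 73.2, 102 and 74.7 CPM (-3.36 ± 0.27, adjusted p = 4.28e-06), and Il4ra, which was lower in eosinophils by a smaller margin (-1.03 ± 0.31, adjusted p = 0.0241) and lost its call without eosinophil library 2 (-0.39) or without macrophage library 3 or 4.

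Transcription factors of the granulocyte lineage divided by factor. Of 18 listed, 9 were higher in eosinophils, 4 were higher in macrophages and 5 were not called, with a median of 1.16. Of these, Gata1, Cebpe and Gfi1b passed the filter on low values only with both eosinophil libraries. The count and the median depend on them: the median was 0.33 without eosinophil library 1 and 0.63 without library 2. Gata1, which commits progenitors to the eosinophil, mast cell and erythroid lines, stood at 117 and 68.6 CPM in eosinophils and was read in only 1 macrophage library, at 0.565 CPM (6.37 ± 0.39, adjusted p = 4.68e-07). Cebpe, needed for terminal granulocyte maturation, stood at 34.1 and 14.1 CPM against 0, 0.105, 0.565, 0.579 and 0 CPM (4.24 ± 0.45, adjusted p = 3e-05). Gfi1b, a repressor that acts with GATA factors, stood at 55.5 and 19 CPM against 0, 0.421, 0.848, 0.464 and 0 CPM (4.68 ± 0.48, adjusted p = 2.22e-05). These 3 factors were thus at or near 0 in every macrophage library, while Gata2 (2.81 ± 0.53) and Spi1 (1.81 ± 0.32), the myeloid factor PU.1, were read in every library of both types and were higher in eosinophils. Cebpa went the other way, at 7.79 and 2.59 CPM in eosinophils and 194, 249, 152, 246 and 144 CPM in macrophages (-5.10 ± 0.36, adjusted p = 1.44e-06). Id2 (-1.19 ± 0.24) and Runx1 (-1.37 ± 0.28) were also higher in macrophages.

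Granule protein transcripts, by contrast, were mostly scarce. Of 10 listed genes only 3 passed the filter, and 7 lay below it. Prg2, which encodes major basic protein, stood at 272 and 242 CPM in eosinophils and 8.46, 11.1, 13.3, 11.5 and 29.5 CPM in macrophages (4.16 ± 0.39, adjusted p = 1.33e-05). Ear6, an eosinophil-associated ribonuclease, stood at 17.6 and 28.2 CPM against 1.15, 0.948, 3.96, 0.579 and 2.62 CPM (3.16 ± 0.48, adjusted p = 0.000429). Epx, eosinophil peroxidase, was read at only 0.917 and 1.73 CPM in the eosinophil libraries and did not pass the filter. Prg3 was read in 1 eosinophil library, at 3.67 CPM, and in no macrophage library, which makes it at least 15.8-fold higher in eosinophils when 3 reads over the group are taken as the floor. That bound rests on the 24 reads of this 1 library, and none remains without it. Ear2 was called in the direction opposite to its name, at 0 and 0.288 CPM in eosinophils and 10.4, 14.8, 11.6, 33 and 4.59 CPM in macrophages (-3.56 ± 0.56, adjusted p = 0.000535). The Ear genes are near-identical copies whose reads can be assigned to the wrong member, so the values of single Ear genes are uncertain.

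**Figure D2:**
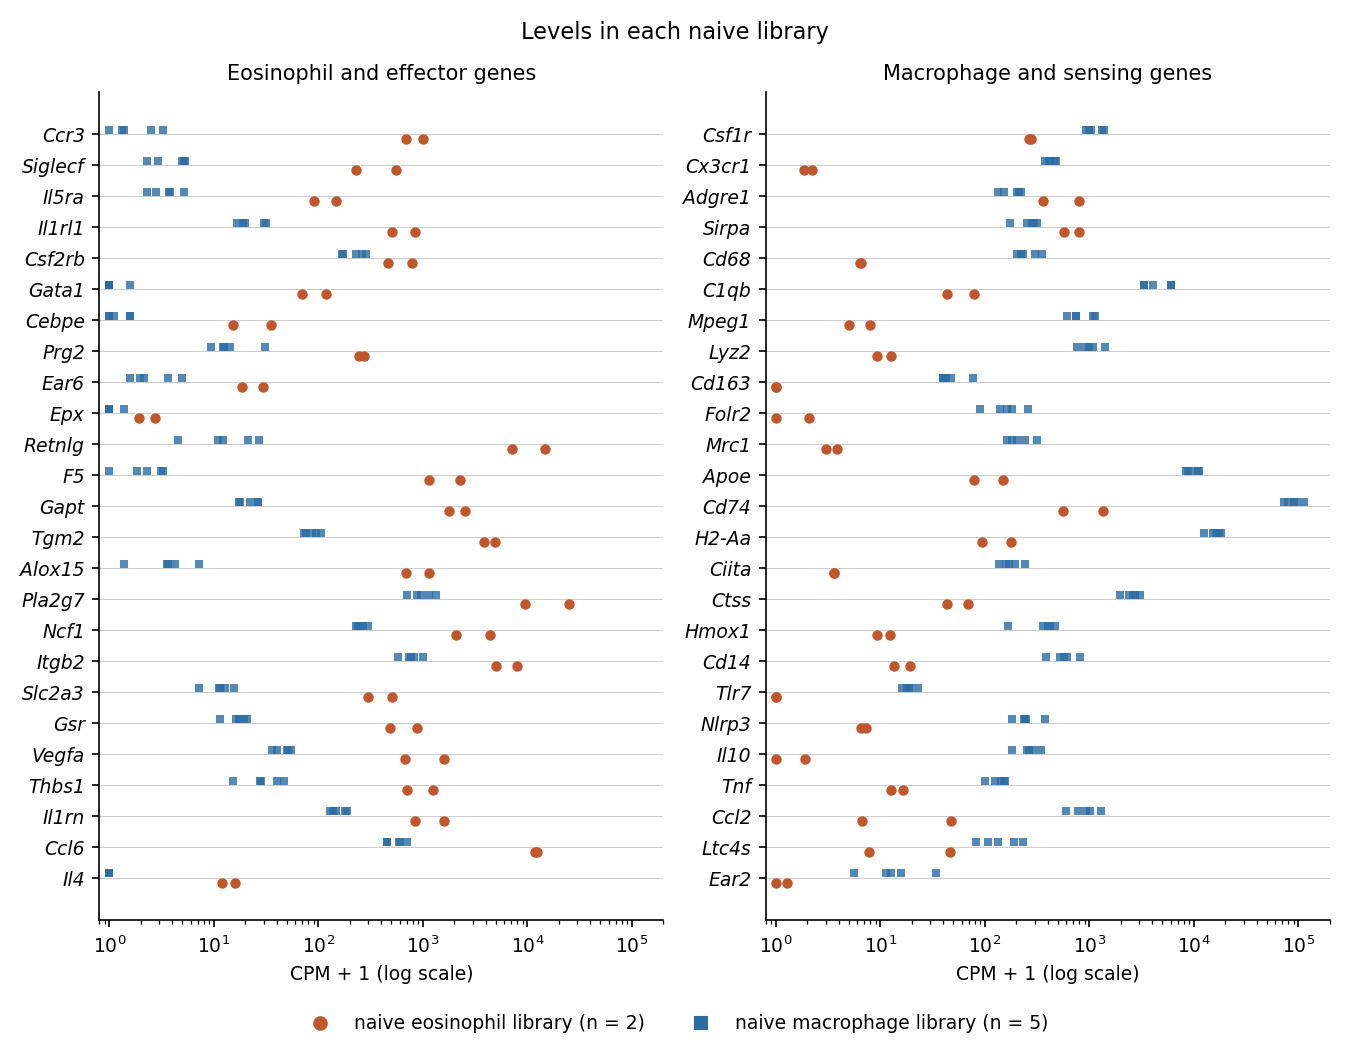
Level of 50 genes in each naive library, as CPM + 1 on a log axis, with circles for the 2 eosinophil libraries and squares for the 5 macrophage libraries. The groups are separated for every gene plotted, widely for Ccr3 and C1qb and least for Epx, Adgre1 and Csf2rb, and Adgre1 and Sirpa in the macrophage panel are higher in eosinophils.

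The genes with the smallest p among those higher in eosinophils were not the textbook granule proteins. F5, which encodes coagulation factor V, stood at 1137 and 2250.1 CPM against 0, 0.843, 2.26, 2.09 and 1.31 CPM (9.56 ± 0.47, adjusted p = 1.1e-07). Retnlg, a resistin-like secreted protein, stood at 7173 and 14628 CPM against 3.48 to 26 CPM (9.65 ± 0.57, adjusted p = 4e-07). Gapt, a transmembrane adaptor that binds GRB2, stood at 1782 and 2528 CPM against 16.4 to 25.7 CPM (6.61 ± 0.27, adjusted p = 6.31e-08). Tgm2, a transglutaminase that crosslinks proteins, stood at 3863 and 4914 CPM against 72.5 to 106 CPM (5.65 ± 0.25, adjusted p = 6.31e-08). In each of these 4 genes both eosinophil libraries exceeded every macrophage library by a wide gap, and in F5 and Retnlg eosinophil library 2 was well above library 1.

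Further genes of this kind were Treml2, a TREM-like receptor (457 and 630.3 CPM against 5.24 to 11 CPM, 6.03 ± 0.32), Tmem154 (5.66 ± 0.32), Rab44, a large Rab GTPase of granules (409 and 178 CPM against 0.565 to 1.39 CPM, 7.12 ± 0.38), and G0s2, an inhibitor of fat breakdown (157 and 129.7 CPM against 0 to 0.655 CPM, 6.72 ± 0.35). Padi4, which citrullinates histones, stood at 83.1 and 58.2 CPM and was read in only 1 macrophage library, at 0.105 CPM. Rab44, G0s2, Padi4 and the factors Gata1, Cebpe and Gfi1b could be tested only with both eosinophil libraries, since with 1 of them left out they no longer reached 2 CPM in 2 libraries. The same holds for Alox12e and Il4 below.

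Retnlg and Padi4 also belong to a list of neutrophil markers, of which 14 of 20 passed the filter, 9 were higher in eosinophils and none in macrophages, with a median of 2.03. Without eosinophil library 2, 5 were higher. The summed level of the list was 7575 and 14995 CPM in eosinophils and 67.1 to 105 CPM in macrophages, and nearly all of the eosinophil sum was Retnlg. Several defining neutrophil genes were low in CPM: Ly6g stood at 13.6 and 4.9 CPM, S100a9 at 13.1 and 23.9 CPM, Ltf at 2.29 and 6.63 CPM, Camp at 0.306 and 0 CPM and Ngp at 0 and 0.288 CPM in the eosinophil libraries. Their eosinophil means were 336% (Ly6g), 783% (S100a9), 606% (Ltf), 135% (Camp) and 255% (Ngp) of the macrophage means. Of this list, S100a9 (2.77), Lcn2 (2.26) and Mmp9 (3.88) were called higher in eosinophils. Cxcr2 and Csf3r stood at 2.6 and 4.32 CPM and at 14.1 and 8.07 CPM, and neither was called. The part of neutrophil RNA in these results was not tested.

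Enzymes that make lipid mediators were divided between the cell types. Of 16 eicosanoid genes tested, 7 were higher in eosinophils, 5 in macrophages and 4 were not called, with a median of 0.76. The lipoxygenase branch was on the eosinophil side. Alox15 differed by 7.98 ± 0.51 (adjusted p = 6.64e-07). Alox12e, an epidermis-type 12-lipoxygenase, stood at 311 and 194 CPM against 0, 0, 1.13, 0.464 and 0.655 CPM (7.47 ± 0.41, adjusted p = 2.09e-07). Alox5, the enzyme that opens leukotriene synthesis, stood at 2119 and 595 CPM against 126, 65.7, 119.5, 66.4 and 87.2 CPM (3.63 ± 0.44, adjusted p = 8.56e-05). Its partner Alox5ap (1.68 ± 0.23) and Lta4h, which makes leukotriene B4 (2.96 ± 0.29), were higher in eosinophils as well. Alox5 was the least even of these, with eosinophil library 1 well above library 2.

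Ltc4s, which makes the cysteinyl leukotriene C4, was on the other side, at 6.72 and 45.8 CPM in eosinophils and 187, 81, 229.7, 106 and 134 CPM in macrophages (-2.87 ± 0.59, adjusted p = 0.00307). Of the prostaglandin genes, Hpgds, the hematopoietic prostaglandin D synthase, stood at 2.75 and 9.22 CPM against 99.7 to 146 CPM (-4.27 ± 0.36, adjusted p = 4.92e-06), and Hpgd, which inactivates prostaglandins, at 3.51 and 2.31 CPM against 27.3 to 51.6 CPM (-3.14 ± 0.32, adjusted p = 2.15e-05). Ptgs1, the constitutive cyclooxygenase, differed by -1.79 ± 0.25 (adjusted p = 0.00025). Pla2g7, which degrades platelet-activating factor, was on the eosinophil side, at 9544 and 25147 CPM against 1132, 702, 1334, 875 and 949.8 CPM (3.99 ± 0.40, adjusted p = 1.85e-05). Tbxas1, thromboxane synthase, was higher in eosinophils by a smaller amount (1.05 ± 0.25, adjusted p = 0.0065) and was not called with plain library sums.

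Chemokine transcripts separated into a small eosinophil group and a larger macrophage group. Of 25 chemokines tested, 6 were higher in eosinophils and 13 in macrophages, with a median of -2.48. Ccl6, a mouse chemokine of myeloid cells, stood at 12329 and 11939 CPM in eosinophils and 708, 454, 596, 603 and 449 CPM in macrophages (4.45 ± 0.28, adjusted p = 5.46e-07). Cxcl2, which attracts neutrophils, stood at 6645 and 11442 CPM against 1664, 1467, 1234, 1979.6 and 1159.5 CPM (2.57 ± 0.33, adjusted p = 0.000132), and its relative Cxcl3 stood at 65.6 and 121 CPM against 1.15, 5.48, 1.98, 12.3 and 1.31 CPM (4.43 ± 0.64, adjusted p = 0.000308). Ccl9 (1.85 ± 0.32) and Ccl3 (0.98 ± 0.29) were higher in eosinophils too. The groups did not overlap for any of these 5, although Ccl3 came close, its lower eosinophil library being at 540.3 CPM and its highest macrophage library at 474 CPM. Ccl3 lost its call without eosinophil library 2 and with plain library sums.

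On the macrophage side, Ccl22, which attracts regulatory T cells, stood at 0 and 0.865 CPM in eosinophils and 83.5, 211, 299.8, 226 and 186 CPM in macrophages (-7.10 ± 0.44, adjusted p = 4.91e-07). The monocyte chemokines Ccl2 (5.65 and 46.1 CPM against 592 to 1305 CPM, -5.66 ± 0.58) and Ccl7 (3.97 and 4.32 CPM against 122 to 216 CPM, -5.06 ± 0.26) were higher in macrophages, as were Ccl8 (-4.85 ± 0.32), Ccl4 (-2.48 ± 0.36), Cxcl1 (-4.03 ± 0.38), Cxcl9 (-3.91 ± 0.30) and Cxcl16 (-5.56 ± 0.35). Pf4, platelet factor 4, stood at 3.67 and 5.48 CPM against 302 to 528 CPM (-6.09 ± 0.28, adjusted p = 8.05e-08). Ccl2 was much higher in eosinophil library 2 than in library 1, and still both values lay below the lowest macrophage library. Ccl24, an eotaxin, had no read in either eosinophil library and stood at 5, 3.9, 7.06, 49 and 0.655 CPM in macrophages, at least 43.8-fold higher there, or at least 13.9-fold without library 4. Macrophage library 4 held 423 Ccl24 reads, against 1 to 37 in the other macrophage libraries, and also the highest Ear2 level, and the call of Ccl24 was lost when either eosinophil library or macrophage library 2 or 3 was left out.

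Cytokines and growth factors were evenly divided. Of 34 tested, 12 were higher in eosinophils and 13 in macrophages, with a median of -0.55. Vegfa, the main angiogenic growth factor, stood at 676 and 1589 CPM in eosinophils and 49.6, 39.3, 35.3, 54.1 and 49.8 CPM in macrophages (4.49 ± 0.33, adjusted p = 1.77e-06). Thbs1, thrombospondin 1, which restrains angiogenesis and activates TGF-β, stood at 711 and 1241 CPM against 39.2, 26.9, 14.1, 45.4 and 27.5 CPM (4.99 ± 0.40, adjusted p = 3.85e-06). Wnt11 stood at 325 and 266 CPM against 8.85, 20.5, 18.9, 19.1 and 10.5 CPM (4.23 ± 0.35, adjusted p = 4.58e-06). Both eosinophil libraries were above every macrophage library for all 3.

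Smaller differences toward eosinophils were found for Il1rn, the interleukin-1 receptor antagonist (839.5 and 1600.4 CPM against 129 to 187 CPM, 2.90 ± 0.29), Il1a (1.69 ± 0.33), Osm, oncostatin M (2.34 ± 0.27), Hbegf (1.45 ± 0.34) and Il16 (1.24 ± 0.26). Il4 was read in both eosinophil libraries, at 11 and 15 CPM, and had no read in any macrophage library, so it was at least 112-fold higher in eosinophils. On the macrophage side, Il10 was read almost wholly in macrophages, at 0.917 and 0 CPM in eosinophils and 250.1, 262, 289.6, 343 and 179 CPM in macrophages (-7.55 ± 0.32, adjusted p = 6.31e-08). Tnf stood at 15.4 and 11.5 CPM against 98.3 to 155 CPM (-3.21 ± 0.26, adjusted p = 4.13e-06), Il1b at 318 and 836 CPM against 1513 to 2667 CPM (-1.89 ± 0.38, adjusted p = 0.00266) and Pdgfb at 2.29 and 1.73 CPM against 31.5 to 57.7 CPM (-3.87 ± 0.32, adjusted p = 4.14e-06). Interleukin-1 thus had its antagonist and its alpha form higher in eosinophils and its beta form higher in macrophages.

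The oxidative burst and glucose use were 2 further groups with more genes higher in eosinophils than in macrophages. Of 25 genes of the NADPH oxidase and antioxidant list, 12 were higher in eosinophils and 2 in macrophages, with a median of 0.89. Ncf1, a cytosolic subunit of the oxidase, stood at 4411 and 2083 CPM against 227 to 295 CPM (3.58 ± 0.30, adjusted p = 4.99e-06). Gsr, glutathione reductase, stood at 485 and 875 CPM against 19.6, 16.2, 18.6, 15.1 and 10.5 CPM (5.29 ± 0.31, adjusted p = 4e-07). Hvcn1, the proton channel that sustains the burst, differed by 1.11 ± 0.28 (adjusted p = 0.00961) and was not called with plain library sums. Of 28 genes of glycolysis and HIF-1 targets, 11 were higher in eosinophils and 4 in macrophages, with a median of 0.71. Scaling by library sums changed this split to 8 and 6, and leaving out eosinophil library 2 changed it to 17 and 0.

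Slc2a3, a high-affinity glucose transporter, stood at 509 and 300.3 CPM in eosinophils and 10.4, 10.1, 14.4, 6.26 and 11.8 CPM in macrophages (5.12 ± 0.33, adjusted p = 7.12e-07). Slc16a3, a lactate exporter, stood at 1394 and 642 CPM against 40.0 to 68.9 CPM (4.18 ± 0.34, adjusted p = 4.39e-06). Aldoa, aldolase A (2.91 ± 0.24), Slc2a1, the ubiquitous glucose transporter (2.38 ± 0.43), Hif1a, the hypoxia-inducible factor (1.95 ± 0.26), and its regulator Egln3 (2.38 ± 0.37) were higher in eosinophils as well. Of 33 nuclear-encoded genes of the respiratory chain, none was higher in eosinophils and 9 were higher in macrophages, with a median of -0.46. This count was 17 with plain library sums, 5 without eosinophil library 2 and 4 without macrophage library 3, and without eosinophil library 1 the genes split into 2 and 7. Transcripts of the mitochondrial genome summed to 204079 and 314616 CPM in eosinophils and 69276 to 149138 CPM in macrophages, and 4 of 13 were called higher in eosinophils and 1, mt-Nd6, in macrophages. Without eosinophil library 1 or without macrophage library 1, 7 were higher in eosinophils.

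Adhesion genes were divided between the cell types. Of 23 integrin and adhesion genes, 9 were higher in eosinophils and 7 in macrophages, with a median of -0.17. Itgb2, the common chain of the leukocyte integrins, stood at 5057 and 7902 CPM against 578 to 1012 CPM (3.04 ± 0.30, adjusted p = 1.93e-05). Itgb7, the chain that binds the gut addressin, stood at 679 and 787 CPM against 67.3 to 123 CPM (3.17 ± 0.27, adjusted p = 6.47e-06), and Itgal differed by 2.86 ± 0.28. Cd24a, a glycoprotein of granulocytes, stood at 5489 and 5578 CPM against 120.4 to 266 CPM (4.97 ± 0.31, adjusted p = 5.49e-07). Pecam1 was higher in eosinophils by 2.33 ± 0.28. The eosinophil values of these genes lay above all macrophage values.

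Receptors for extracellular nucleotides differed gene by gene, 6 of 15 tested being higher in each cell type. Without eosinophil library 2 or macrophage library 3, 3 were higher in macrophages. P2rx1, an ATP-gated channel, stood at 253 and 34.9 CPM against 0.385, 2.32, 1.13, 2.09 and 3.93 CPM (5.13 ± 0.67, adjusted p = 0.000145), with eosinophil library 1 far above library 2. P2ry2, a receptor for ATP and UTP, stood at 146 and 124 CPM against 3.93 to 13.8 CPM (4.02 ± 0.43, adjusted p = 3.39e-05). P2ry6, a receptor for UDP, was on the macrophage side, at 3.51 and 2.02 CPM against 70.1 to 101 CPM (-4.60 ± 0.27, adjusted p = 3.84e-07), together with P2rx7 (-3.44 ± 0.43). The paired immunoglobulin-like receptors Lilra6 (277 and 394 CPM against 8.52 to 19.8 CPM, 4.28 ± 0.34) and Pira2 (202 and 280.4 CPM against 18.9 to 38.1 CPM, 3.14 ± 0.32) were higher in eosinophils, with the caution that their family holds near-identical copies.

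Feedback genes of cytokine signalling differed by gene. Of 35 cytokine receptor and STAT-SOCS genes, 8 were higher in eosinophils, 12 in macrophages and 15 were not called. Socs2 and Cish, feedback inhibitors induced through STAT5, stood at 349 and 408 CPM against 32.6 to 59 CPM (3.04 ± 0.27, adjusted p = 8.91e-06) and at 78.8 and 109.8 CPM against 9.62 to 22 CPM (2.57 ± 0.34, adjusted p = 0.000156). Socs3, induced through STAT3, was on the macrophage side, at 41.3 and 29.1 CPM against 311 to 627 CPM (-3.60 ± 0.32, adjusted p = 7.95e-06). The receptors Il6ra (-3.44 ± 0.22) and Il21r (-4.94 ± 0.37) were higher in macrophages as well.

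Macrophages carried a large set of genes whose levels in eosinophils were near 0. Of 36 genes of resident gut macrophages tested, 31 were higher in macrophages and 3 in eosinophils, with a median of -3.56. Cx3cr1, the fractalkine receptor of gut macrophages, had the smallest p of all named genes, at 1.22 and 0.865 CPM in eosinophils and 471, 372, 474, 416 and 412 CPM in macrophages (-7.72 ± 0.23, adjusted p = 1.33e-08). Mrc1, the mannose receptor, stood at 1.99 and 2.88 CPM against 162 to 316 CPM (-5.98 ± 0.29, adjusted p = 1.13e-07). Folr2, a folate receptor, stood at 1.07 and 0 CPM against 160.1, 138, 259, 88.5 and 182 CPM (-6.77 ± 0.40, adjusted p = 4.04e-07), and Cd163, the hemoglobin scavenger receptor, had no read in either eosinophil library and 41.6, 46.7, 39, 76.5 and 38.7 CPM in macrophages, at least 162-fold higher. All 5 macrophage libraries carried these genes, Folr2 with the widest range among them.

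The secreted and surface products behind the smallest p-values on this side were Dnase1l3, a DNase that digests DNA of dying cells (4.74 and 5.19 CPM against 404 to 587 CPM, -6.38 ± 0.23), Pld4, an endolysosomal exonuclease (0.917 and 2.88 CPM against 365 to 434 CPM, -7.17 ± 0.28), Lyz2, lysozyme (11.5 and 8.36 CPM against 769 to 1404 CPM, -6.55 ± 0.28), and Jaml, an adhesion molecule (0.306 and 0 CPM against 126 to 169.8 CPM, -7.04 ± 0.26). Tlr12 (-6.59 ± 0.28), Ms4a7 (-5.71 ± 0.24), Cd83 (-6.49 ± 0.28) and Aif1 (-6.59 ± 0.29) were of the same kind. Apoe, apolipoprotein E, stood at 149 and 78.4 CPM against 11291, 8793, 11018, 9297 and 8454 CPM (-6.47 ± 0.32, adjusted p = 1.26e-07), and the 3 chains of C1q moved together, C1qa by -7.26 ± 0.26, C1qb by -6.25 ± 0.35 and C1qc by -7.33 ± 0.29.

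Transcription factors of the macrophage lineage were 13 times in 22 higher in macrophages and 3 times higher in eosinophils, with a median of -1.35. Maf (-4.0 ± 0.42, adjusted p = 2.56e-05) and Irf8, needed for monocyte and dendritic cell fate (-4.21 ± 0.49, adjusted p = 6.46e-05), were higher in macrophages, each with eosinophil library 1 above library 2. Of the core lineage genes, 13 of 20 were higher in macrophages and 4 in eosinophils, with a median of -2.95. Cd68 (-5.32 ± 0.27), Fcgr1 (-4.66 ± 0.30), Mertk (-3.53 ± 0.39), Cd14 (-5.13 ± 0.30), Msr1 (-5.83 ± 0.30), Mpeg1 (-7.07 ± 0.31) and Ctss (-5.52 ± 0.28) were higher in macrophages.

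Some genes listed for macrophages were higher in eosinophils. Adgre1, which encodes the F4/80 antigen, stood at 356 and 794 CPM in eosinophils and 150.1, 223, 199.8, 213 and 134 CPM in macrophages (1.56 ± 0.33, adjusted p = 0.00408). Sirpa, which receives the CD47 signal against phagocytosis, stood at 567 and 789 CPM against 283, 292, 254, 317 and 174 CPM (1.37 ± 0.28, adjusted p = 0.00338). Tyrobp, the adaptor DAP12, stood at 801 and 1265 CPM against 339.7, 230.4, 396, 254 and 314 CPM (1.74 ± 0.29, adjusted p = 0.000812). These 3 and Csf2rb are the 4 core lineage genes on the eosinophil side, and none of them overlapped between the groups. Hes1 (1.80 ± 0.25), Adamdec1 (1.43 ± 0.35) and Cd9 (2.59 ± 0.42), counted with the resident gut macrophage genes, were higher in eosinophils as well.

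**Figure D3:**
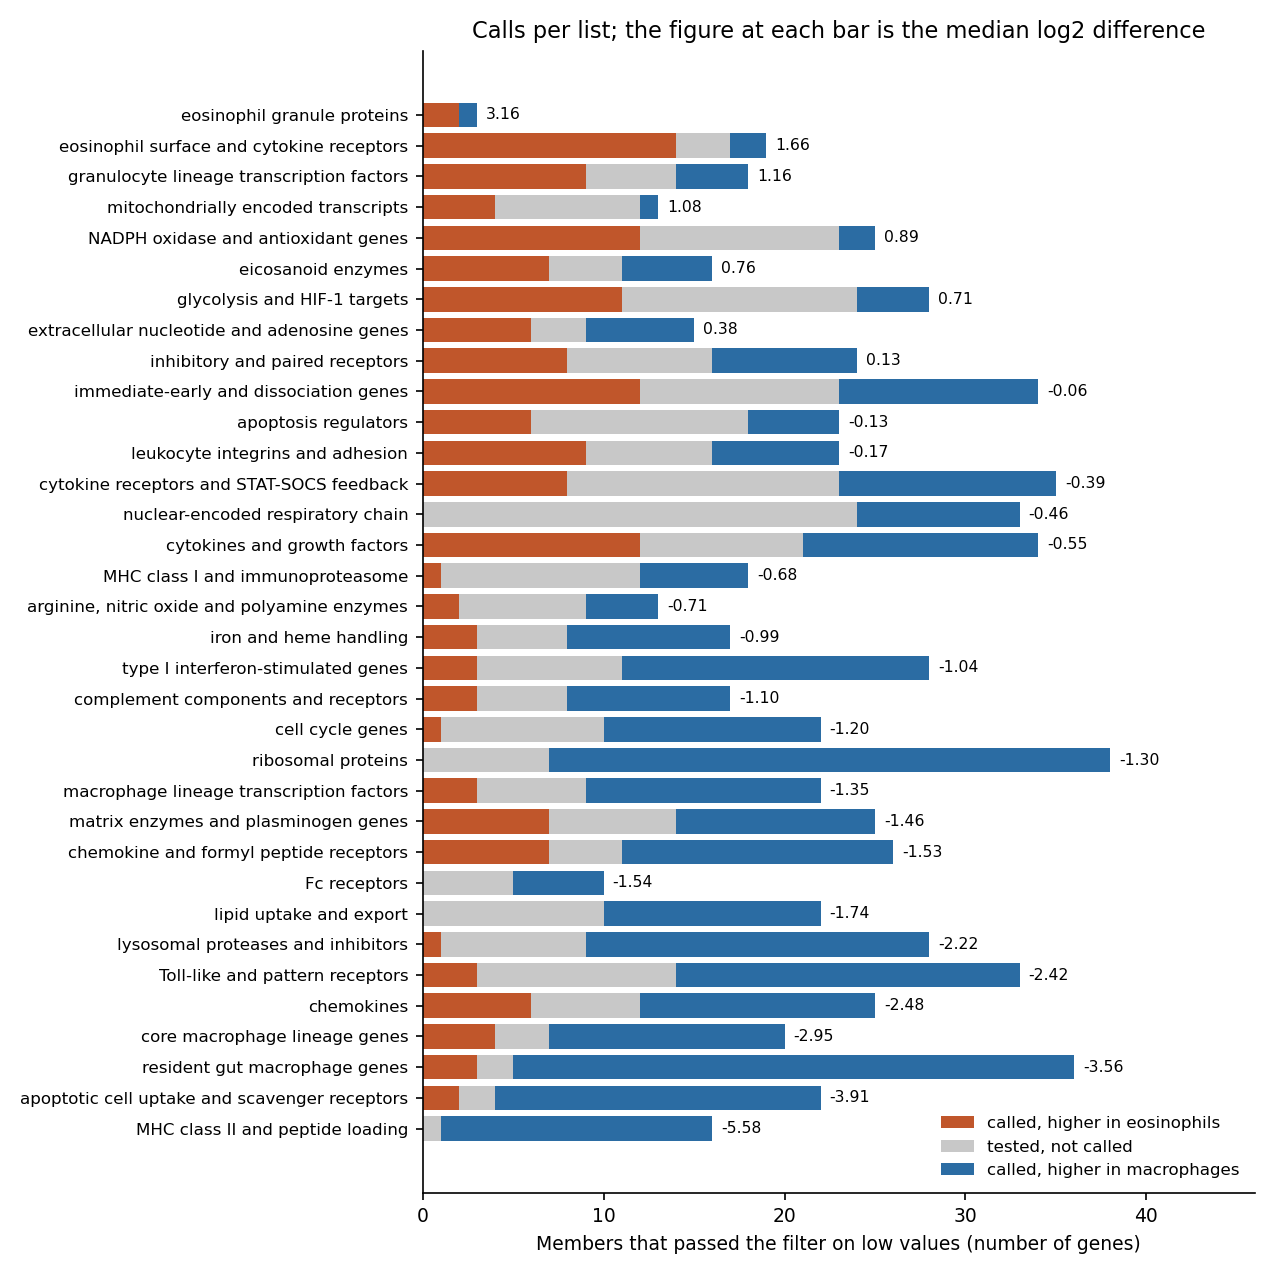
Number of tested members of each gene list (horizontal axis) that were called higher in eosinophils, not called, or called higher in macrophages, with the list's median difference on the log2(CPM + 1) scale printed at each bar. Lists are ordered by that median, from eosinophil granule proteins (3.16, over 3 genes) to MHC class II (-5.58, over 16 genes).

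Antigen presentation on MHC class II was the group with the widest gap. Of 16 genes tested, 15 were higher in macrophages and none in eosinophils, with a median of -5.58. Together the 17 listed genes took 118803 to 171577 CPM in macrophages and 2135 and 1046 CPM in eosinophils, which is 1.51% and 0.739% of the macrophage mean. Cd74, the invariant chain, stood at 1353 and 559 CPM against 94765, 72475, 113211, 80551 and 90897 CPM (-6.68 ± 0.46, adjusted p = 1.08e-06). H2-Aa and H2-Eb1, chains of the I-A and I-E molecules, stood at 177 and 93.1 CPM against 15304, 16204, 18148, 17226 and 12472 CPM (-6.93 ± 0.34) and at 141 and 67.4 CPM against 14364, 12085, 15230.4, 12570.0 and 10592 CPM (-7.03 ± 0.34). The peptide exchange genes H2-DMa (-6.96 ± 0.32) and H2-DMb1 (-7.85 ± 0.48) and Ciita, the master activator of the class (2.6 and 2.59 CPM against 135 to 243 CPM, -5.63 ± 0.27), went with them.

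H2-Ob, a chain of the modulator of peptide exchange that is best known from B cells, had no read in eosinophils and 74.3, 109, 139.6, 73.8 and 111 CPM in macrophages, at least 339-fold higher. B and plasma cell markers moved in the same direction as this list: 20 of 22 were higher in macrophages, and their summed level was 17877 to 81389 CPM in macrophages and 8710.3 and 5929 CPM in eosinophils, most of it Igkc. Cd79a stood at 36.9, 91.2, 202, 76.9 and 153 CPM and Ms4a1 at 6.16, 9.27, 14.7, 10.5 and 12.5 CPM in the macrophage libraries. Of 18 dendritic cell markers, 15 were higher in macrophages and 1, Cd24a, in eosinophils, with Flt3 at 12.7, 28.4, 21.5, 24.6 and 19.7 CPM in the macrophage libraries. Their part in the MHC class II result was not tested. Of 18 class I genes, 1 was higher in eosinophils, 6 were higher in macrophages and 11 were not called, with a median of -0.68.

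Promoters of MHC class II genes carry a conserved Y box, the word TGATTGG in the gene's direction or its complement on the other strand. It is shown for 4 genes of the list, in RefSeq windows of GRCm38.p6 made as above, at chr17:34287774-34288073 on the minus strand and, on the plus strand, at chr17:34305617-34305916, chr17:34152941-34153240 and chr17:34238655-34238954. Capitals mark TGATTGG.
H2-Aa: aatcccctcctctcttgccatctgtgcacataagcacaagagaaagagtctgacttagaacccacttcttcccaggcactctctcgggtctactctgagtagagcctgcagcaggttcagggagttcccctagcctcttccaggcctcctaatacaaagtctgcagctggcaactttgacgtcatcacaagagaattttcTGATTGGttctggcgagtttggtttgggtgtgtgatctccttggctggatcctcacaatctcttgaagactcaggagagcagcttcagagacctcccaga
H2-Eb1: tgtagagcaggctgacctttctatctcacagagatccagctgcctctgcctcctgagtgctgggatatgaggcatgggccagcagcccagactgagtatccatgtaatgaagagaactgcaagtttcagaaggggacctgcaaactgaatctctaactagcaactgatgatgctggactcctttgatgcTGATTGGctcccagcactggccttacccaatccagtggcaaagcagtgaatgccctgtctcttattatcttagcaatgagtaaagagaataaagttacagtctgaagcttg
H2-DMb1: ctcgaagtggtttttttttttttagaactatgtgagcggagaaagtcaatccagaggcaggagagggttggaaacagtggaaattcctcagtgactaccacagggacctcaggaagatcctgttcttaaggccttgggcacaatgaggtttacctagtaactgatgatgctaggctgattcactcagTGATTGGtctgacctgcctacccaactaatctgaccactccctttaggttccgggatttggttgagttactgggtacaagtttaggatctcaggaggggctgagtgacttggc
H2-Ob: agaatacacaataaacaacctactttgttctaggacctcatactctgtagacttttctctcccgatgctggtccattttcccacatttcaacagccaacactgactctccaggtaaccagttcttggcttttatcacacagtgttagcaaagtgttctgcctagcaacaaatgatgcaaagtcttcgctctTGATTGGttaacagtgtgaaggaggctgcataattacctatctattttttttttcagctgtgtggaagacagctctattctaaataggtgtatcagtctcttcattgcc
The word started 50 bases before the start site in H2-Aa, 61 in H2-Eb1, 63 in H2-DMb1 and 59 in H2-Ob. Of 13 promoters found for the list, 7 (53.8%) held it on either strand, against 7.82% of all promoters in the table, 9.49% of those of genes tested, 9.01% of those of genes at least 3 log2 units higher in macrophages and 5.29% of those at least 3 log2 units higher in eosinophils. The letters describe these windows and say nothing of which factor was bound in these cells.

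Genes of uptake and digestion were mostly on the macrophage side. Of 22 genes for uptake of apoptotic cells and scavenger receptors, 18 were higher in macrophages and 2 in eosinophils, with a median of -3.91. Axl, a receptor for dying cells (17.1 and 5.19 CPM against 203 to 280.0 CPM, -4.47 ± 0.36), and Stab1 (-4.23 ± 0.28) were among them. Of 28 lysosomal proteases and inhibitors, 19 were higher in macrophages and 1 in eosinophils, with a median of -2.22, including Ctsb, cathepsin B (496 and 291 CPM against 2096 to 3586 CPM, -2.83 ± 0.33). Of 22 lipid uptake and export genes, 12 were higher in macrophages and none in eosinophils. Abca1, the cholesterol exporter (-2.88 ± 0.23), Pltp, phospholipid transfer protein (-4.55 ± 0.38), and Lpl, lipoprotein lipase (-3.01 ± 0.31), were examples. Of 17 iron and heme genes, 9 were higher in macrophages and 3 in eosinophils, with Hmox1, heme oxygenase (11.3 and 8.36 CPM against 167 to 467 CPM, -5.00 ± 0.37), and Hfe (-5.00 ± 0.24) on the macrophage side.

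Sensing of microbes and of antibody followed the same direction. Of 33 Toll-like and pattern receptors, 19 were higher in macrophages and 3 (5 without eosinophil library 1) in eosinophils, with a median of -2.42. Tlr2 stood at 1.07 and 1.15 CPM against 21 to 32.3 CPM (-3.73 ± 0.29, adjusted p = 2.61e-06), and Tlr7 had no read in eosinophils and was at least 60.1-fold higher in macrophages. Nlrp3, the inflammasome sensor (6.27 and 5.48 CPM against 179.6 to 376 CPM, -5.19 ± 0.29), and Clec7a, the β-glucan receptor Dectin-1 (26.3 and 26.5 CPM against 274 to 386 CPM, -3.58 ± 0.23), were higher in macrophages. Of 10 Fc receptor genes, 5 were higher in macrophages and none in eosinophils, Fcgr4 among them (-5.52 ± 0.28). Chemokine receptors were 15 times in 26 higher in macrophages and 7 times (4 with plain library sums) higher in eosinophils, with Ccr2 (1.83 and 1.44 CPM against 111 to 167 CPM, -5.68 ± 0.25) on the macrophage side opposite Ccr3.

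Matrix enzymes differed by family member, 11 of 25 being higher in macrophages and 7 in eosinophils. Mmp13, a collagenase, stood at 1.22 and 2.02 CPM against 97.7 to 166 CPM (-5.73 ± 0.28, adjusted p = 1.1e-07), with Mmp12 (-4.44 ± 0.35) and Mmp14 (-3.63 ± 0.36) in the same direction. Mmp9, a gelatinase of granulocytes, was higher in eosinophils, at 156 and 81.3 CPM against 4.23 to 12.6 CPM (3.88 ± 0.40, adjusted p = 2.46e-05). Of 38 ribosomal protein genes, 31 were higher in macrophages and none in eosinophils, with a median of -1.30, for example Rps19 (-3.07 ± 0.36) and Rps4x (-2.54 ± 0.24). Of 22 cell cycle genes, 12 were higher in macrophages and 1 in eosinophils, Mki67 standing at 13.9 and 16.7 CPM against 71.6 to 118 CPM (-2.46 ± 0.26, adjusted p = 2.88e-05). Of 28 interferon-stimulated genes, 17 were higher in macrophages and 3 in eosinophils.

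The few genes that went against their list were as follows. Eosinophils were higher for Itgb3 (5.23 ± 0.33) and Olr1 (4.36 ± 0.56) among uptake and scavenger receptors, Ctse, cathepsin E (2.80 ± 0.39), among lysosomal proteases, H2-D1 (1.56 ± 0.26) among class I genes and Tpx2 (2.17 ± 0.36) among cell cycle genes. They were also higher for Slc40a1, Slc11a1 and Lcn2 among iron genes, Naip5, Clec4e and Clec12a among pattern receptors, Isg20, Irf7 and Ddx58 among interferon-stimulated genes, and Ahr (2.89 ± 0.32), Klf2 (2.25 ± 0.31) and Ets2 (2.22 ± 0.27) among macrophage transcription factors. Macrophages were higher for Prdx1 and Nfe2l2 in the oxidase and antioxidant list and for Hk3, Pfkfb3, Pfkfb4 and P4ha1 in the glycolysis list. Of these, Irf7, Slc11a1, Clec12a, Hk3, Pfkfb3, Pfkfb4 and P4ha1, and mt-Nd6 above, lost their call in at least 1 of the fits that left out a library. Itgam, a chain of the integrin Mac-1, has a name on more than 1 row and was kept out of the list counts.

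Genes induced early by stress and tissue digestion were called in both directions, 12 of 34 higher in eosinophils and 11 in macrophages, with a median of -0.06. Without eosinophil library 1, 5 were higher in macrophages. Their summed level was 57685 and 62058 CPM in eosinophils and 29719 to 37107 CPM in macrophages, and the part of digestion in the differences was not tested. Of 23 apoptosis regulators, 6 were higher in eosinophils and 5 in macrophages (9 with plain library sums), the latter including Bax (-1.51 ± 0.32) and Cflar (-1.87 ± 0.29). Over all genes tested, 15% were higher in eosinophils and 19.7% in macrophages.

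Markers of other cell types were read in all libraries, and their summed levels are given beside the results above. Epithelial markers summed to 3462 and 2449.8 CPM in eosinophils and to 656 to 3844 CPM in macrophages, macrophage library 1 being the highest, and 4 of 22 were higher in eosinophils, namely Epcam, Krt8, Reg3b and Reg3g. Scaled by library sums only 1 of the 22 was called, and Epcam and Krt8 were not called by edgeR or DESeq2 either. Epcam, Krt8 and Reg3g also lost their call without eosinophil library 2 and without macrophage library 2 or 4. Stromal and endothelial markers summed to 2418 and 1364 CPM against 903 to 4002 CPM, and erythrocyte and platelet markers to 3533 and 1288 CPM against 272 to 4693 CPM, with macrophage library 5 the highest both times. T and NK cell markers summed to 102 and 78.1 CPM against 493 to 727 CPM, and in the macrophage libraries most of the sum was Cd4, which is also transcribed by gut macrophages and stood at 10.8 and 2.59 CPM against 372 to 546 CPM. Cd3e (3.21 and 3.75 CPM against 3.08, 1.37, 1.98, 0 and 1.31 CPM) and Ncr1, read in 1 macrophage library only, were near 0. Mast cell and basophil markers summed to 98.6 and 122 CPM against 34.2 to 57 CPM. Of 14 listed, 6 passed the filter, of which 2 were higher in eosinophils and 2 in macrophages. The eosinophil mean was 2070% of the macrophage mean for Hdc, 734% for Gata2, 254% for Mcpt1 and 217% for Mcpt2. It was 34% for Cpa3, 16.8% for Kit and 15.1% for Il3ra. Fcer1a, Ms4a2 and Mcpt8 were at 0 in both eosinophil libraries, but had only 3, 6 and 3 reads over all macrophage libraries. The part of these cells in the differences was not tested.

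**Figure D4:**
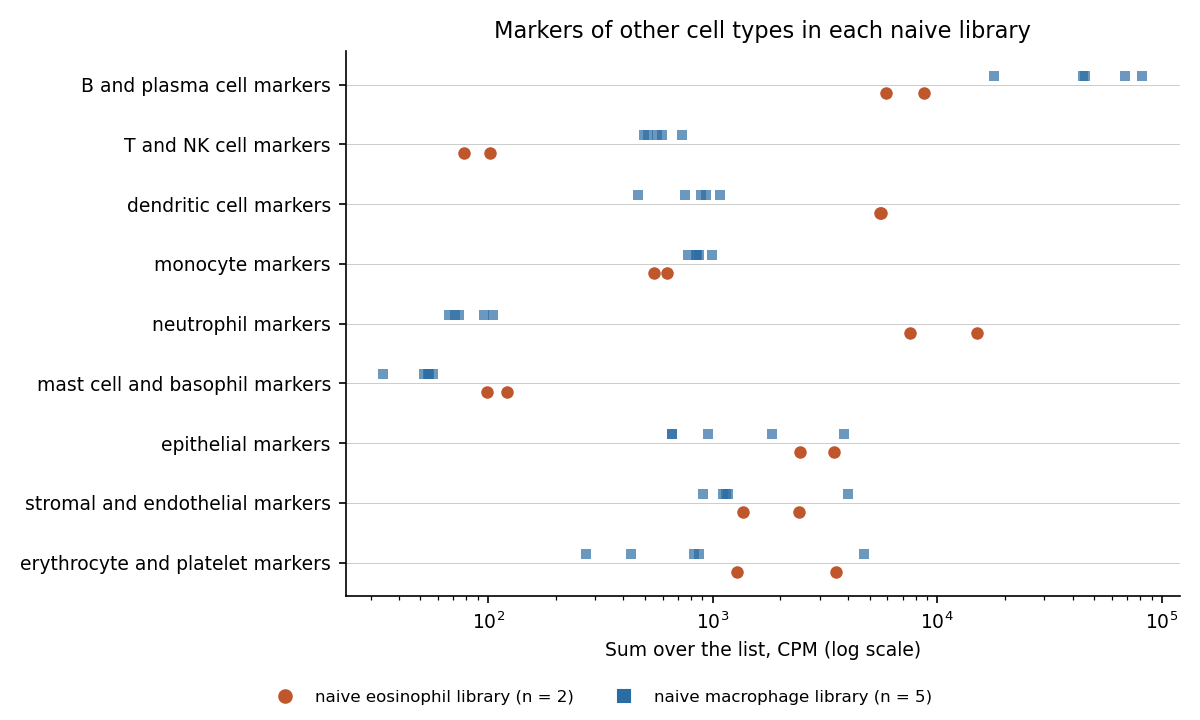
Summed level in CPM, on a log axis, of marker lists of 9 other cell types in each naive library, with circles for eosinophils (n = 2) and squares for macrophages (n = 5). Neutrophil markers are higher in eosinophils, where Retnlg is nearly all of the sum, and 9 of the 14 members tested were called higher there. Dendritic cell markers are higher in eosinophils through Cd24a, B and plasma cell markers are higher in macrophages, and epithelial, stromal and erythrocyte markers overlap between the groups.

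Variation within the groups was uneven. The eosinophil pair differed by more than 4-fold in 845 of 12994 genes (6.5%), pairs of macrophage libraries in 0.3% to 2.74% of genes, and eosinophil-macrophage pairs in 12.2% to 19% of genes. Across genes, log2 levels of the eosinophil pair had a Pearson r of 0.90, against 0.93 to 0.97 among macrophages and 0.73 to 0.79 between cell types, as a description with genes that are not independent. Of the 190 called genes named in this account, the fold moved by more than 1.5 times in 36 without eosinophil library 1, in 31 without eosinophil library 2 and in 1, Ccl24, without macrophage library 4. The widest ranges were those of P2rx1 (3.91 without library 1 and 6.67 without library 2), Ccl2 (-4.05 and -6.98), Ltc4s (-1.37 and -4.07), Cd79a (-4.61 and -2.06), H2-DMb1 (-9.03 and -6.58), Irf8 (-5.26 and -2.88) and Cd9 (3.77 and 1.71). None of the named genes changed direction in any of these fits.

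The same contrast was read in the tumor libraries, whose CPM were scaled among the tumor libraries only. Of 14398 genes tested there, 6509 (45.2%) were called, of which 2652 (18.4%) were higher in eosinophils and 3857 (26.8%) in macrophages. Of the naive calls, 1217 were called higher in eosinophils in both, which is 62.6% of the naive and 45.9% of the tumor calls, and 1896 were called higher in macrophages in both, 74% of the naive and 49.2% of the tumor calls. The opposite call was made for 21 and 20 genes. Of the genes at least 3 log2 units apart in naive colon, 188 of 202 tested on the eosinophil side and 337 of 366 on the macrophage side were called in the same direction. The lineage genes were among them: Ccr3 differed by 7.71 ± 0.24 in tumor libraries, Siglecf by 5.27 ± 0.28, C1qa by -5.88 ± 0.21 and Cx3cr1 by -5.44 ± 0.31. Among the granule proteins in tumor eosinophils, Prg2 ranged from 297 to 9243 with a median of 499.9 CPM and Epx from 0 to 286 with a median of 18.9 CPM, with tumor library 4 the highest for both.

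A test of whether the cell type difference itself differed between naive and tumor colon called 659 of 15147 genes (4.35%), 398 (2.63%) with a difference higher toward eosinophils in naive colon and 261 (1.72%) with one lower. These counts rest on the eosinophil pair: without eosinophil library 1 they were 929 and 761, without eosinophil library 2 they were 58 and 79, and without macrophage library 1 or 3 the first count was 259 or 260. The colon state and anything else that separates the naive from the tumor libraries cannot be told apart. In tumor libraries Vegfa ranged from 151 to 455 with a median of 257 CPM in eosinophils and from 257 to 469 with a median of 358 CPM in macrophages, so that the 4.49 log2 gap of naive colon was absent, and the difference of differences was 4.97 ± 0.40 (adjusted p = 5.45e-08).

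Socs2 (3.95 ± 0.45, adjusted p = 1.41e-05), Gsr (3.27 ± 0.38), Osm (3.11 ± 0.40), Thbs1 (3.30 ± 0.54), Tgm2 (3.02 ± 0.42), Slc2a1 (2.95 ± 0.47), Hvcn1 (2.73 ± 0.31) and Hif1a (2.22 ± 0.30) also had a difference shifted toward eosinophils in naive colon. For Socs2, Osm, Slc2a1, Hvcn1 and Hif1a this shift exceeded the naive difference given above. A smaller eosinophil excess in tumor is thus not implied for these genes. In Socs2 the tumor eosinophils ranged from 26.8 to 116 with a median of 55.6 CPM and the tumor macrophages from 85.6 to 132 with a median of 95.7 CPM. The medians were thus in the opposite order to naive colon, where eosinophils stood at 349 and 408 CPM, but the tumor ranges overlapped. Tnf, Ccl2 and Ccl7 went the other way. Tumor eosinophils ranged from 65.7 to 223 with a median of 134 CPM of Ccl2 and tumor macrophages from 102 to 281 with a median of 184 CPM, and the difference of differences was -5.09 ± 0.66 (adjusted p = 6.69e-05), the macrophage excess being larger in naive colon. For Ccl7 this value was -4.41 ± 0.52 and for Tnf -2.71 ± 0.45.

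Of the 17 listed MHC class II genes, 7 were called in this test, all with a larger macrophage excess in naive colon, and 10 were not. H2-Aa ranged from 313 to 945 with a median of 473 CPM in tumor eosinophils and from 10005 to 12949 with a median of 10384 CPM in tumor macrophages, a difference of -4.33 ± 0.23, and the difference of differences was -2.55 ± 0.41 (adjusted p = 0.000734). Cd74 (-2.61 ± 0.42), H2-Eb1 (-2.55 ± 0.33) and H2-DMa (-3.07 ± 0.32) were among the 7. Jaml (-4.39 ± 0.40), Nlrp3 (-3.72 ± 0.47) and Cd163 (-5.53 ± 0.42) had a larger macrophage excess in naive colon. In tumor libraries Cd163 ranged from 0 to 1.01 with a median of 0.435 CPM in eosinophils and from 0.408 to 0.875 with a median of 0.537 CPM in macrophages, against 38.7 to 76.5 CPM in naive macrophages.

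**Figure D5:**
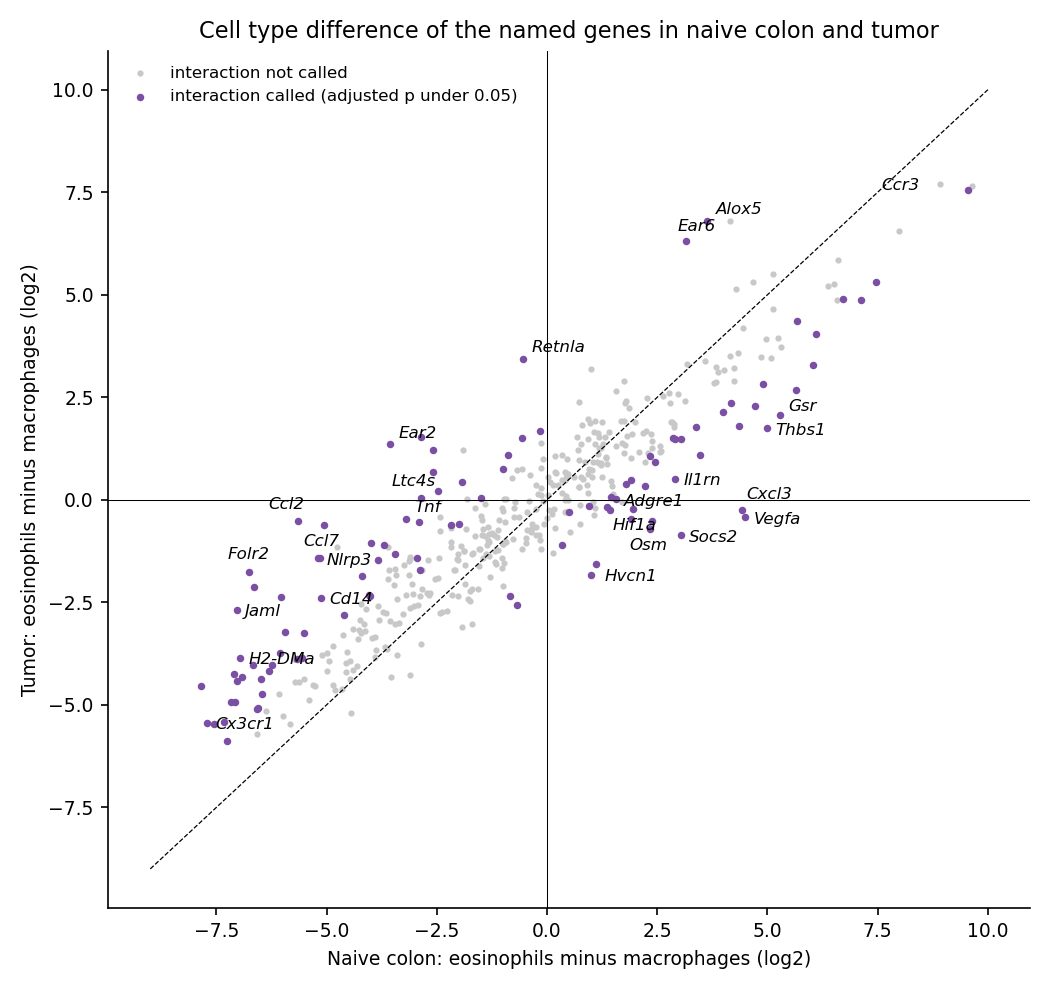
Difference between eosinophils and macrophages on the log2(CPM + 1) scale in naive colon (horizontal axis) and in tumor colon (vertical axis) for the named genes tested in both, coloured where the difference of differences was called, with the line of equal differences. Vegfa, Cxcl3 and Socs2 lie far below that line, and Ccl2, Ccl7 and Jaml lie far above it.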

How the data were processed

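Colon eosinophils and macrophages sorted from C57BL/6 mice were profiled by CEL-Seq, in 20 libraries, of which the 7 naive ones carry the comparison. The authors deposited 1 table per cell type, whose values are a normalised signal: gene read counts divided by 1 size factor per library, scaled within each table. Per the submitters' processing notes, the tools included the aligner TopHat2 2.1.0 with Bowtie2 2.2.6, the counter HTSeq 0.6.1 and DESeq2 1.14.1, on the build GRCm38.p5, with FastQC 0.11.5 and Trim Galore for read quality. Their order, settings and annotation, and the handling of strand and molecular identifiers, are not given in the sources.

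Because the tables were scaled separately, whole reads were recovered from the step of each library before they were set side by side. Of 130896 non-zero naive values, 100% came out whole within 0.1 read. Of 50600 rows, 27 without a gene name were left out, holding at most 0.1323% of a library's reads. Reads were scaled jointly by TMM (edgeR 4.0.16) to CPM, with factors of 0.8773 and 0.7801 for eosinophils and 0.9605 to 1.196 for macrophages. Genes at 2 CPM or more in at least 2 libraries were tested by limma 3.58.1 (trend, two-sided, R 4.3.3) on log2(CPM + 1), a scale that understates the change of low genes. p-values were Benjamini-Hochberg adjusted over all genes tested, and a gene was called at an adjusted p under 0.05. The difference between naive and tumor colon was an interaction term over all 20 libraries. Counting error only is covered by the bounds given for genes with no read, which use a floor of 3 reads.

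As alternatives, count models fitted to the recovered reads were run: the edgeR quasi-likelihood test called 2032 genes higher in eosinophils and 2359 higher in macrophages, and DESeq2 1.42.0 called 2073 and 2603. Other scalings, pseudocounts, filters and weights, a replicate block and leaving out each naive library were also run.

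Genes named are the defining members of each list, the 12 genes per direction with the smallest p among those called, and up to 3 called members per list and direction. Predicted, ribosomal, mitochondrial and receptor-segment genes were kept out of the 12. Members and lists were chosen with earlier results of these data known. Names on more than 1 row, among them Itgam and Lilrb4a, were left out of the list counts. Some genes that the rule allows are not reported here. Promoter sequences are from RefSeq and gene coordinates from GENCODE M21.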

Additional observations from a re-analysis of the deposited data

Results flagged for a closer look

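A library stood apart from the rest of its group in 12 of 116 groups of values examined, by a gap test that chance passes about 1 time in 20. Among the naive macrophages, library 4 was the highest for Cd163 (76.5 CPM), Ccl24 (49 CPM) and Ptger4 (102 CPM), library 3 for Itgb7 (123 CPM), library 2 for Hpgd (51.6 CPM) and library 5 for Prg2 (29.5 CPM). Library 5 was also the highest for the summed stromal and endothelial markers (4002 CPM) and for the summed erythrocyte and platelet markers (4693 CPM), and library 1 was the lowest for the summed mast cell and basophil markers (34.2 CPM). In tumor eosinophils library 4 was the highest for Prg2 (9243 CPM) and Epx (286 CPM), and in tumor macrophages library 6 was the highest for H2-Aa (12949 CPM).

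The difference between eosinophils and macrophages differed itself between naive and tumor colon (limma interaction, adjusted p under 0.05) for 73 of the 194 tested genes named above. The values below are the naive minus the tumor difference on the log2(CPM + 1) scale. It was shifted toward eosinophils in naive colon for 32 genes, led by Vegfa 4.97, Cxcl3 4.71, Socs2 3.95, Thbs1 3.30, Gsr 3.27, Osm 3.11, Tgm2 3.02, Slc2a1 2.95 and Treml2 2.80. The next were Hvcn1 2.73, Olr1 2.61, Cd300lf 2.48, Il1rn 2.44, Rab44 2.30, Alox12e 2.25, Hif1a 2.22, Padi4 2.15 and F5 2.07. Smaller shifts were those of Ets2 1.94, Pla2g7 1.89, G0s2 1.89, Slc16a3 1.86, Adamdec1 1.73, Itgb2 1.61, Adgre1 1.59, Sirpa 1.59 and Aldoa 1.47. The smallest were those of Hes1 1.46, Hbegf 1.42, Itgal 1.41, Tmem154 1.35 and Pecam1 1.33. It was shifted toward macrophages in naive colon for 41 genes, led by Cd163 -5.53, Ccl2 -5.09, Folr2 -5.03, Ear2 -4.93, H2-Ob -4.57, Ccl7 -4.41, Jaml -4.39, Nlrp3 -3.72, Cd4 -3.63 and H2-DMb1 -3.33. These were followed by Alox5 -3.12, H2-DMa -3.07, Ear6 -3.05, Maf -2.91, Ccl22 -2.87, Ltc4s -2.86, Tnf -2.71, Cd14 -2.69, Ccl4 -2.64 and Cd74 -2.61. Values of intermediate size were found for H2-Aa -2.55, H2-Eb1 -2.55, Cx3cr1 -2.28, Fcgr4 -2.27, Pld4 -2.25, C1qb -2.17, Mpeg1 -2.11, Il10 -2.11, Il6ra -2.07 and Cd83 -2.07. The last were Csf3r -2.02, C1qc -1.86, Ccr2 -1.79, P2ry6 -1.78, Apoe -1.68, Cxcl16 -1.67, Cxcl1 -1.65, Tlr12 -1.50, Lyz2 -1.44, C1qa -1.34 and Abca1 -1.13. With eosinophil library 2 left out, this test called 58 and 79 genes over all genes, in place of 398 and 261, and 35 of the 73 genes named here stayed called. Colon state and anything else that separates the naive from the tumor libraries cannot be told apart.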

How the results depend on the processing

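Leaving out each naive library in turn gave 1640 to 2245 genes called higher in eosinophils and 1882 to 2582 higher in macrophages, where all 7 gave 1945 and 2563. A lone eosinophil library is then assumed to vary like the macrophages. Naive minus tumor counts, 398 and 261 with all libraries, ranged from 58 to 929 and from 79 to 761. Scaling by plain library sums gave 1260 and 3523 calls, with the median of all genes at -0.44 in place of -0.11. Array weights gave 1130 and 1495, and limma-voom with quality weights gave 1391 higher in eosinophils and 839 higher in macrophages. The larger count was thus on the eosinophil side under limma-voom, unlike in the main fit. For naive minus tumor, DESeq2 gave 709 and 459, limma-voom 111 and 33, median-of-ratios scaling 259 for the first count and no filter 170 for the second. The cause of these shifts was not tested. No difference printed for a single gene changed direction under any of the alternatives that gave one. Of the 194 genes with a naive difference, 190 were called. DESeq2 lost 2 of these calls, edgeR 3, the fit of all 20 libraries 4, plain library sums 9, no filter 11, array weights 18 and limma-voom 23. A filter of 10 CPM left 6 genes untested, and 9 were untested with either eosinophil library left out. The 5 tumor differences kept their calls in every setting run. Of the 73 naive minus tumor values, all called, 38 lost the call without eosinophil library 2, 9 without eosinophil library 1, 4 to 13 without a macrophage library, 45 under limma-voom, 20 with no filter, and 0 to 10 under each of the other settings. Genes of few reads are limited by depth.

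The labels number the libraries of both cell types, but do not say that a number marks a shared animal or day. Deviations from the group means correlated across genes at 0.0134 for number 1 and 0.0451 for number 2. Unmatched numbers reached 0.109, for eosinophil library 2 with macrophage library 4. With only 2 eosinophil libraries their deviations mirror each other, so these values can neither show nor exclude pairs. As the labels name no pairs, the numbers were not taken as such. With the replicate block, which rests on numbers 1 and 2, 855 genes were called higher in eosinophils and 1098 in macrophages, and 35 calls of genes named above were lost.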
